A study of Homo sapiens with 3 samples.

Results

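The BCL2 family, the caspases and the death receptors form the core machinery of programmed cell death. The 44 genes were taken from a list of named members, and each was read from the probe set that carried its symbol alone, or from the one with the highest mean over the 3 arrays where there were several. A value was obtained for 41 of the 44, out of 18417 genes in all. The probe set of BCL2L2 is shared with the read-through gene BCL2L2-PABPN1, so BCL2L2 is not among the 41, and BIRC3 and RIPK1 were not analysed here. HepG2, a long-established line from a human liver tumour, was grown in MEM medium, and its cells were measured on 3 Affymetrix arrays. One array held cells exposed to graphene oxide (GO), a sheet of carbon that bears oxygen groups, one held cells exposed to reduced graphene oxide (rGO), in which many of these groups have been removed, and one held cells without treatment, the control. Each exposure lasted 24 h at the material's own EC20, the dose linked to a 20% effect in viability assays. Concentrations are not stated in the labels, and the amounts of the materials used may not have been equal.

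Apoptosis is reached by a mitochondrial and a receptor route. In the mitochondrial route, BH3-only proteins sense damage and relieve the block that BCL2, BCL2L1 and MCL1 place on the pore-forming effectors, after which cytochrome c leaves the mitochondrion and activates CASP9 on the APAF1 scaffold. In the receptor route, ligands of the TNF family cluster death receptors, which recruit FADD and CASP8; in hepatocytes the signal is known to be amplified through cleavage of BID. IAP proteins restrain the caspases, and where CASP8 is blocked, RIPK3 and MLKL can drive necroptosis, a lytic form of death.

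All 3 arrays had near-equal distributions, with medians of 6.63 (GO), 6.66 (rGO) and 6.65 (control) over 33297 probe sets. Of 10 hepatocyte markers 8 were measured, and all 8 lay between 8.73 and 13.57 in the 3 arrays. After GO they differed from control by -0.27 (AFP) to 0.70 (TTR, 1.62-fold higher), with FOXA2 at 0.35, and after rGO by 0.03 to 0.16. Among 13 measured markers of leukocytes, fibroblasts, stellate cells and endothelium, LYZ stood at 13.43 (GO), 13.38 (rGO) and 13.23 (control) and ACTA2 at 9.79, 9.69 and 9.66 in the same order, whereas PTPRC, which defines leukocytes, stood at 3.56, 3.76 and 3.65. None of these 13 markers differed by 1.5-fold from control after either exposure, but PDGFRB was 1.66-fold higher with GO than with rGO. The part of these markers in any result was not tested. With 1 array per group there is no replicate error and no significance test, so each difference is a measurement on a pair of arrays that cannot be told from variation between dishes. The cells were measured in bulk, so fewer cells expressing a gene and less RNA per cell cannot be told apart. As a yardstick, the robust SD (the scaled median absolute deviation) of the log2 differences of all genes was 0.217 for GO minus control and 0.133 for rGO minus control. Differences of single probe sets of the same gene scattered with a robust SD of 0.0765 and 0.0570 in these comparisons.

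The first question was how GO-exposed cells differed from control cells in their death machinery, and most of it lay close to control. At least 1.5-fold differences were found for 1 of the 41 genes, TNFRSF21, which was higher. Over all genes the share at least 1.5-fold higher was 1.41%, and 2.99% were at least 1.5-fold lower, where 0 of the 41 stood. None of the 41 reached 2-fold, beside 0.174% of all genes at least 2-fold higher and 0.603% lower. At a log2 difference of at least 0.32, 5 genes were higher (TNFRSF21, TNFRSF10D, BCL2L1, BCL2L13 and MCL1), or 12.2% beside 7.49% of all genes, and 4 were lower (BIRC2, CYCS, CASP6 and BID), or 9.76% beside 10.9% of all genes. The median difference over the 41 genes was 0.02 and that over all genes -0.01. The robust SD over the 41 was 0.217, the same to 3 digits as over all genes, but these sets were not matched for level. Among genes with a mean past log2 6.66, it was 0.196 for 35 of the 41, less than the 0.244 for all 11050 such genes. Yet at a log2 difference of at least 0.32, 14.3% of these 35 were higher, beside 9.61% of the 11050. Lower were 11.4% of the 35, beside 13.3% of the 11050.

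**Figure D1:**
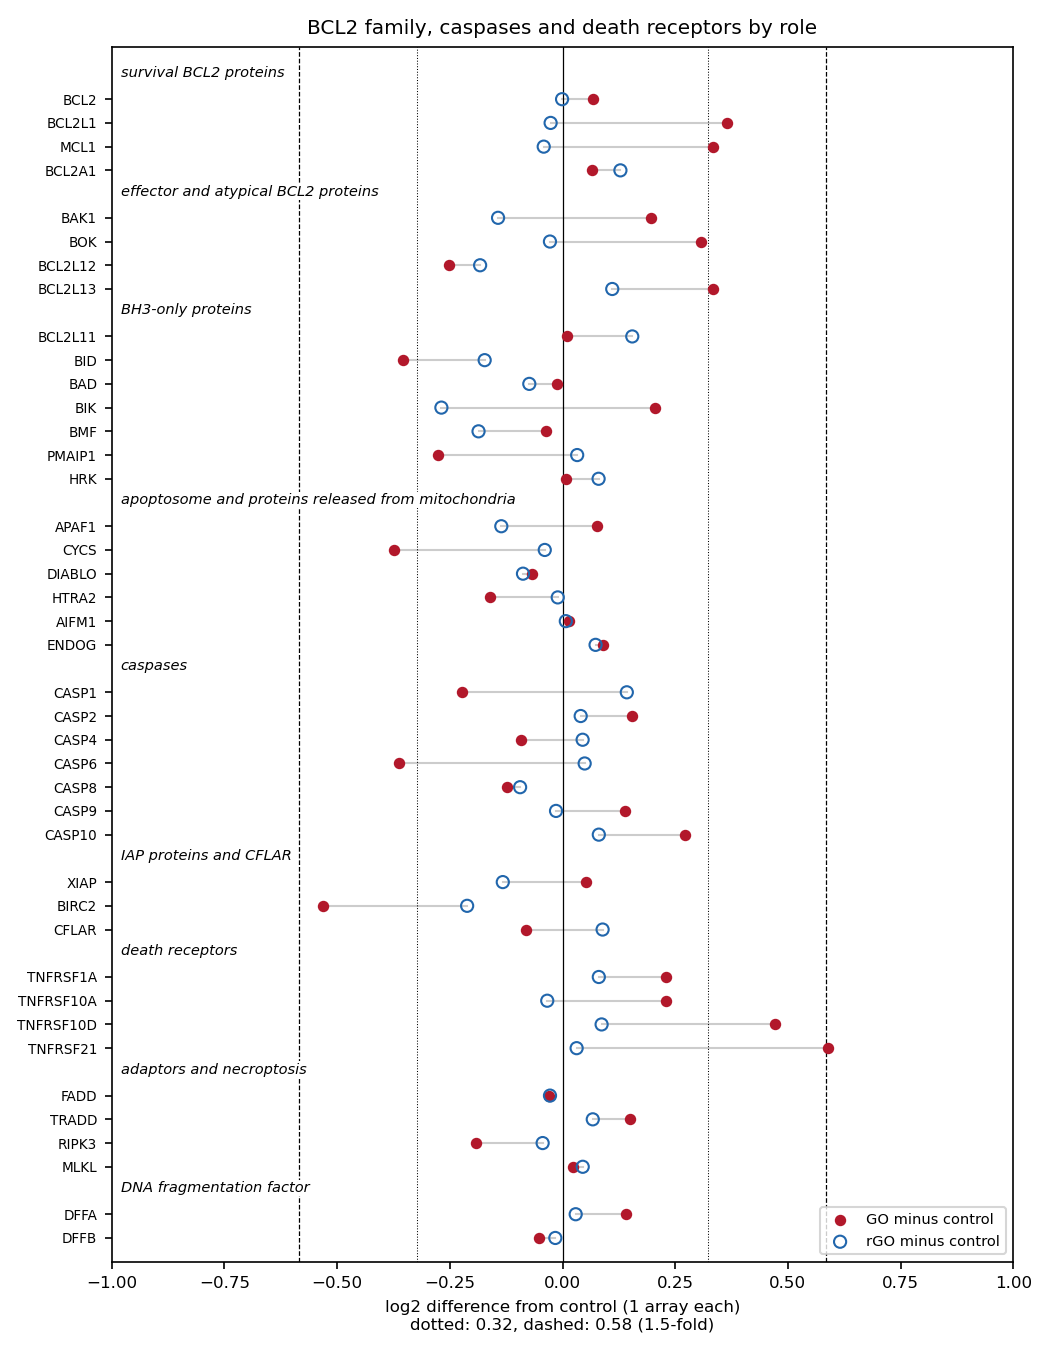
Log2 difference from control for each of the 41 measured genes, grouped by role (filled red, GO minus control; open blue, rGO minus control; 1 array per group, no error bars). TNFRSF21 reaches the dashed 1.5-fold line after GO, 8 others pass the dotted line at 0.32 after GO, and none passes it after rGO.

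The second question was how rGO-exposed cells differed from control cells. Here 0 of the 41 genes reached 1.5-fold in either direction, beside 0.076% of all genes higher and 0.282% lower. At a log2 difference of 0.32 there were again 0 of the 41, beside 1.37% of all genes higher and 3.2% lower. Differences ran from -0.27 for BIK to 0.15 for BCL2L11, with a median of -0.01, beside -0.02 for all genes. Since GO and rGO were both set against the same control array, an error in that array enters both comparisons. Their values are given side by side below, and a shared direction from control cannot be told from such an error. Over all genes the GO array was highest for 39.9%, lowest for 38% and in the middle for 22%. Of the 41 it was highest for 48.8%, lowest for 34.1% and in the middle for 17.1%.

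The promoters of 4 genes are shown first, since each of these genes had the largest difference from control in its role and these 4 differences were the largest among the roles. The letters are the 250 bases before the first listed RefSeq start (GRCh38.p14), 5′ to 3′ on the strand of the gene, and capitals mark motif matches on either strand.
TNFRSF21 (chr6:47309906-47310155, minus strand): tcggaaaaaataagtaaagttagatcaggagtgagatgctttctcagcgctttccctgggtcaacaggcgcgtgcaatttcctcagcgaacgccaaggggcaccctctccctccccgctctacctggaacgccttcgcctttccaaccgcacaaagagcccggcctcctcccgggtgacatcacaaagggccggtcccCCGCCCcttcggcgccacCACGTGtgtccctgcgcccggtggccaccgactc
BIRC2 (chr11:102346964-102347213, plus strand): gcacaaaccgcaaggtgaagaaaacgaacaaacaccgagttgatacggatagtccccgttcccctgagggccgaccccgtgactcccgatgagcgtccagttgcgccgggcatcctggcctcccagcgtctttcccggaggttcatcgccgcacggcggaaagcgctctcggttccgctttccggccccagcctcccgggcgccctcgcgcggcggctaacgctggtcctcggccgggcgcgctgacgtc
CYCS (chr7:25125261-25125510, minus strand): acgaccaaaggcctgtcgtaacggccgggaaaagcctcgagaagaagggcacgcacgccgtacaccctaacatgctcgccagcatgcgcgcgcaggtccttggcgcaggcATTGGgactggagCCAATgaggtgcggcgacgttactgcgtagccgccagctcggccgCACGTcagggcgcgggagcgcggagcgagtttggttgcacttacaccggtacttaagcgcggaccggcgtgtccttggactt
BCL2L1 (chr20:31723964-31724213, minus strand): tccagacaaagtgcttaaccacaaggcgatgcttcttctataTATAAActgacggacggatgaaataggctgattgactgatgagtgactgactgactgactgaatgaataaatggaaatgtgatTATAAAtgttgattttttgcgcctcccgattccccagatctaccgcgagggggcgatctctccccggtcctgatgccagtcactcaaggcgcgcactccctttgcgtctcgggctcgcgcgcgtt
In the TNFRSF21 window the GC box GGGCGG was found from -52 to -47 relative to the start, on the opposite strand, and the hypoxia core ACGTG was found on both strands, as overlapping matches within CACGTG from -34 to -29. CYCS had the CCAAT box on each strand, from -140 to -136 and from -127 to -123, and 1 hypoxia core from -82 to -78. In BCL2L1 TATAAA was found from -208 to -203 and from -125 to -120, far from the listed start. BIRC2 held no full match to the motifs searched, which also included the AP-1 site TGANTCA, the CRE TGACGTCA and the NF-kappa-B consensus. Its window ends in TGACGTC, the CRE without its last base, and matches across the window's end were not counted. BIRC2 and BCL2L1 each had 2 listed starts, of which the first was used. Among 35116 promoters of that length, GGGCGG was found in 42.6%, CCAAT in 32%, ACGTG in 18.5%, TATAAA in 10.7%, the NF-kappa-B consensus in 9.96%, TGANTCA in 6.57% and TGACGTCA in 1.65%. Of 32 members with a listed promoter, 19 held GGGCGG, 13 CCAAT, 8 ACGTG, 2 TATAAA, 2 the NF-kappa-B consensus and 0 either of the others. GC content was 62% for TNFRSF21, 67.6% for BIRC2, 64.4% for CYCS and 50% for BCL2L1, beside a median of 58% over all promoters. A match is a description of the letters and says nothing of binding.

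The 4 listed death receptors were above control after GO, with a median difference of 0.35, beside 48.7% of all genes above 0. Other death receptors outside the list did not all do so, with TNFRSF10B at 0.12, TNFRSF25 at 0.04 and FAS at -0.33. TNFRSF21 (probe set 8126839), also called death receptor 6, carries a death domain and has been studied mainly in neurons and immune cells. Its log2 value was 10.79 with GO and 10.23 with rGO, against 10.20 in the control. The GO array stood apart from the other 2, and the difference from control of 0.59, or 1.5-fold, exceeded that of 98.6% of all genes. The value of 0.588 lies barely over the 1.5-fold line at 0.585. TNFRSF10D, a decoy receptor that binds the ligand TRAIL but has a truncated death domain, stood at 9.88 with GO and 9.50 with rGO, against 9.41 in the control. It was thus 1.39-fold higher with GO, above 97.2% of all genes, and 0.09 higher on the log2 scale with rGO. TNFRSF10A, a TRAIL receptor that does signal death, had 7.73 with GO, 7.47 with rGO and 7.51 in the control. TNFRSF1A, the main receptor for TNF, had 9.82 with GO, 9.67 with rGO and 9.59 in the control. Both of these were higher by 0.23 with GO, close to the robust SD of all genes. After rGO the 4 receptors lay between -0.03 and 0.09.

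**Figure D2:**
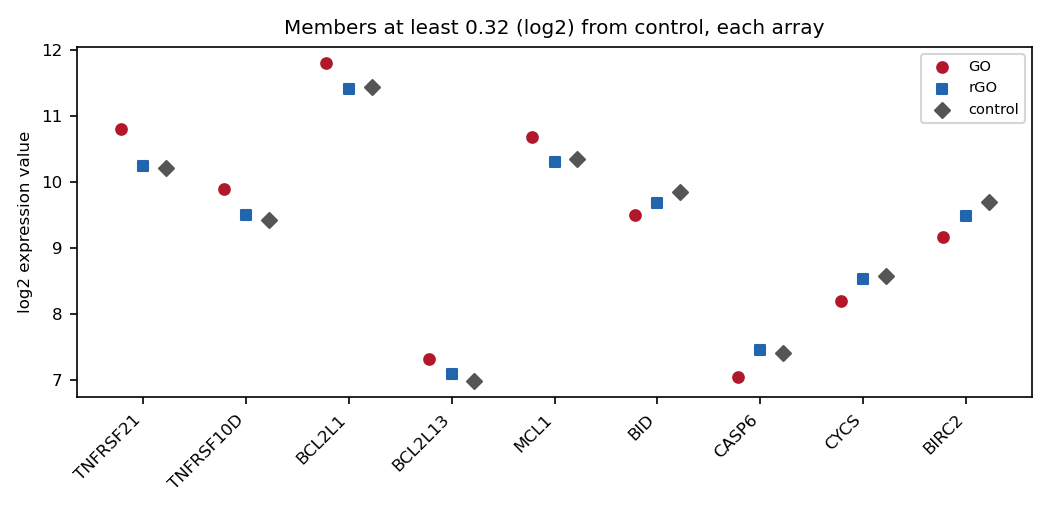
Log2 expression values in the GO, rGO and control arrays (1 array each) of the 9 genes with a log2 difference of at least 0.32 from control after GO, ordered by that difference. Levels can be compared between arrays of a gene and not between genes; in 7 of the 9 the rGO value differs from the control by 0.11 or less, BID and BIRC2 being the exceptions.

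Adaptors beneath the receptors lay nearer to control. FADD, which links receptors to CASP8, stood at 8.93 in both exposed arrays and at 8.96 in the control. TRADD, the adaptor of TNFRSF1A, had 8.22 with GO and 8.14 with rGO, against 8.07 in the control. MLKL, the executor of necroptosis, had 7.57 with GO, 7.60 with rGO and 7.55 in the control. The largest of these differences from control was that of TRADD after GO, at 0.15. The necroptosis kinase RIPK3 had 5.47 with GO and 5.61 with rGO, against 5.66 in the control, a larger difference of -0.19 after GO. These RIPK3 values lay under log2 6.66, the 40th percentile of gene means, where background can mask differences.

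Within the BCL2 family, BCL2L1 and MCL1 RNA was higher in the GO array. The 4 listed survival genes with a value were above control after GO, beside 48.7% of all genes, with a median difference of 0.20. Of these, BCL2 at 0.07 and BCL2A1 at 0.06 lay within the robust SD of all genes, 0.217. Both lay under the level at which the scatter between probe sets was measured. BCL2L10, a survival gene outside the list that is likewise weakly expressed, stood at -0.23. The shared probe set of BCL2L2, also a listed survival gene, stood at -0.06. BCL2L1, whose long isoform BCL-XL protects hepatocytes, stood at 11.80 with GO and 11.41 with rGO, against 11.43 in the control. MCL1, a short-lived protein on which hepatocyte survival also depends, stood at 10.67 with GO and 10.29 with rGO, against 10.34 in the control. Both were higher in the GO array than in either other array, 1.29-fold and 1.26-fold over control, more than 94.4% and 93.1% of all genes. The isoforms of BCL2L1 and MCL1, some of which promote death, were not separated. BCL2 had 6.14 with GO, 6.07 with rGO and 6.07 in the control, and BCL2A1, a target of NF-kappa-B, had 5.43, 5.50 and 5.37 in that order, so both lay under the level of 6.66 in every array. After rGO the 4 genes lay between -0.04 and 0.13.

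Effectors and atypical relatives were less uniform. BAK1, which forms pores in the outer mitochondrial membrane, had 8.76 with GO and 8.42 with rGO, against 8.56 in the control. BOK, a related effector, had 9.61 with GO and 9.28 with rGO, against 9.30 in the control. In both the GO array was highest and the rGO array lowest. BCL2L13, an outer-membrane protein that acts as a mitophagy receptor, had 7.31 with GO, 7.08 with rGO and 6.97 in the control, a 1.26-fold difference for GO. BCL2L12, an atypical family member, had 7.23 with GO and 7.30 with rGO, against 7.48 in the control. The control was the highest array for BCL2L12, with differences of -0.25 and -0.18.

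BH3-only genes had a median difference of -0.01 after GO, with 3 of 7 above 0 and 4 below. BID, the link from CASP8 to mitochondria, stood at 9.49 with GO and 9.67 with rGO, against 9.85 in the control. It was 1.28-fold lower with GO and 1.13-fold lower with rGO, and the control was the highest of the 3 arrays. PMAIP1, which encodes the p53-responsive NOXA, had 6.30 with GO, 6.61 with rGO and 6.58 in the control, all under the level of 6.66. BIK had 5.81 with GO and 5.34 with rGO, against 5.61 in the control. It is likewise weakly expressed, and its 3 values also lay under that level. Values of BCL2L11, the gene of BIM, were 7.81 with GO, 7.95 with rGO and 7.80 in the control. BMF, released from the cytoskeleton upon detachment, had 7.03 with GO and 6.88 with rGO, against 7.07 in the control. BAD, which is held inactive by growth factor signals, and HRK, best known in neurons, differed from control by -0.01 and 0.01 after GO and by -0.07 and 0.08 after rGO.

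**Figure D3:**
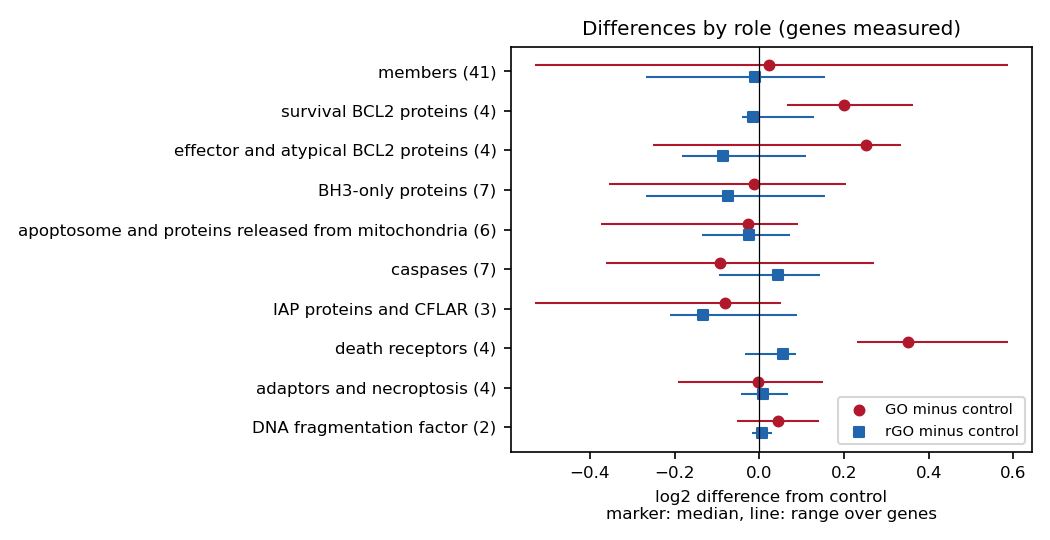
Median (marker) and full range over genes (line) of the log2 difference from control by role (red circles, GO minus control; blue squares, rGO minus control), with the number of measured genes in brackets. After GO the ranges of the measured survival genes and of the listed death receptors lie wholly above 0, while the other roles span 0. Among genes not drawn, TNFRSF10B (0.12) and TNFRSF25 (0.04) lay above 0, and BCL2L10 (-0.23), FAS (-0.33) and the shared BCL2L2 probe set (-0.06) below.

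The apoptosome and the proteins released from mitochondria had a median difference of -0.03 after GO and -0.03 after rGO. CYCS, which encodes cytochrome c, stood at 8.19 with GO and 8.53 with rGO, against 8.57 in the control. It was 1.3-fold lower with GO, and the rGO array stood near the control. CYCS has 45 named pseudogenes in RefSeq, so its probe set may read near-identical copies and the value is uncertain. Fewer are named for other members, with 3 each for CASP1 and XIAP, 2 for BAK1 and 1 each for BCL2L12, AIFM1 and DFFB. The same limit may apply to their values. APAF1 had 7.51 with GO and 7.30 with rGO, against 7.44 in the control. HTRA2 had 9.18 with GO, 9.33 with rGO and 9.34 in the control, and DIABLO had 8.21, 8.19 and 8.27 in that order. Both encode antagonists of IAP proteins, and the larger of their differences from control was that of HTRA2 after GO, at -0.16. AIFM1, a flavoprotein that can act on chromatin without caspases, spanned 10.01 to 10.02 over the 3 arrays. ENDOG, a mitochondrial nuclease, had 7.94 with GO, 7.93 with rGO and 7.85 in the control.

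Caspases were split after GO, with 3 of 7 above 0 and 4 below and a median of -0.09. CASP6, an executioner that cleaves lamins, stood at 7.04 with GO and 7.45 with rGO, against 7.40 in the control. It was 1.29-fold lower with GO, with 8.93% of all genes lower still, and 0.05 higher on the log2 scale with rGO. Among the initiators, CASP9 had 8.15 with GO, 7.99 with rGO and 8.01 in the control, and CASP2 had 9.82, 9.71 and 9.67 in that order. CASP8 had 8.74 with GO and 8.77 with rGO, against 8.86 in the control. CASP10, its close relative, had 7.35 with GO and 7.16 with rGO, against 7.08 in the control. CASP10 and CASP8 thus stood on opposite sides of control after GO, at 0.27 and -0.12. Inflammatory caspases were represented by CASP4, which senses lipopolysaccharide, with 8.48 with GO, 8.61 with rGO and 8.57 in the control, and by CASP1, with 4.08, 4.45 and 4.30 in that order. The level of CASP1 was among the weak ones under 6.66 in each array.

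Of the inhibitors, BIRC2 had the largest negative difference of all 41 genes. BIRC2 encodes cIAP1, a ubiquitin ligase that marks RIPK1 and so steers TNF signals towards survival. It stood at 9.16 with GO and 9.48 with rGO, against 9.69 in the control. The difference was -0.53 for GO, or 1.44-fold lower, with 3.96% of all genes lower still, and -0.21 for rGO, or 1.16-fold lower. XIAP, the direct inhibitor of caspases, had 6.93 with GO and 6.74 with rGO, against 6.87 in the control. CFLAR, the gene of the CASP8 decoy FLIP, was the only one of the 41 with more than 1 probe set. Its stronger probe set had 8.59 with GO and 8.76 with rGO, against 8.67 in the control, and its weaker one had 7.27 with GO and 7.69 with rGO, against 7.47 in the control. In both the GO array was lowest and the rGO array highest, with differences of -0.08 and -0.20 for GO and of 0.09 and 0.22 for rGO.

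The DNA fragmentation factor, a nuclease and its inhibitor that cut chromatin after caspase cleavage, lay near control. DFFA, the inhibitor and chaperone, had 9.46 with GO and 9.35 with rGO, against 9.32 in the control. DFFB, the nuclease, had 7.66 with GO and 7.69 with rGO, against 7.71 in the control.

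Several of these genes lie next to each other in the RefSeq gene order, and neighbours did not share a direction throughout. BCL2L13 and BID, adjacent on chromosome 22, stood at 0.33 and -0.35 after GO and at 0.11 and -0.17 after rGO. On chromosome 2, CFLAR, CASP10 and CASP8 follow each other and stood at -0.08, 0.27 and -0.12 after GO. TNFRSF10D and TNFRSF10A, adjacent on chromosome 8, stood at 0.47 and 0.23. CASP4 and CASP1, with 1 protein-coding gene between them on chromosome 11, stood at -0.09 and -0.22.

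**Figure D4:**
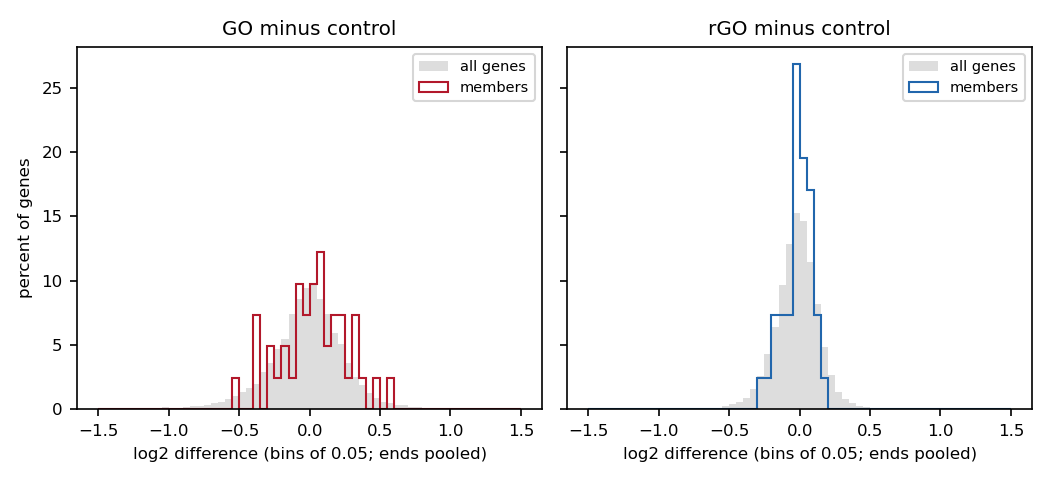
Distribution of log2 differences from control in bins of 0.05 for all 18417 genes (grey) and the 41 measured genes (outline), as percent of genes; left GO minus control, right rGO minus control, values beyond the axis pooled at its ends. The 41 genes, not matched for level, spread over about the same range as the bulk of all genes. Their median was 0.02 after GO and -0.01 after rGO.

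GO and rGO differ in their oxygen groups and were each used at their own EC20. The arrays can thus be set side by side only at these doses of unstated concentration. GO minus rGO shares the GO array with GO minus control, so an error in that array enters both comparisons. A gene named in both is therefore not supported by separate measurements. In GO minus rGO, 0 of the 41 genes were at least 1.5-fold apart, beside 1.3% of all genes higher and 2.2% lower. At a log2 difference of 0.32 or more, 7 genes were higher with GO than with rGO, or 17.1% of the 41 beside 7.11% of all genes, and 3 were lower, or 7.32% beside 8.81% of all genes. The 7 were TNFRSF21 (0.56), BIK (0.47), BCL2L1 (0.39), TNFRSF10D (0.38), MCL1 (0.38), BAK1 (0.34) and BOK (0.34). The 3 were CASP6 (-0.41), CASP1 (-0.37) and CYCS (-0.33). BIK and CASP1 lay under the level of 6.66 in all arrays. Without replicates none of these can be said to show that the materials act differently, or that they act alike.

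Other genes of cell death were taken from 4 further lists of 59 genes, of which 53 were measured. After GO, 2 of the 53 were at least 1.5-fold lower and 0 higher, beside 2.99% and 1.41% of all genes. The median of the 53 was 0.00 after GO and -0.04 after rGO. ROCK1, a kinase whose cleavage by caspases drives membrane blebbing, stood at 8.21 with GO and 8.89 with rGO, against 8.93 in the control. CASP8AP2, a CASP8-associated protein also needed for histone gene expression, stood at 7.58 with GO and 8.25 with rGO, against 8.19 in the control. These were the 2 past 1.5-fold, at -0.72 and -0.61 after GO, and neither differed by more than 0.06 from control after rGO.

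The largest differences after GO in the other BCL2 family and mitochondrial membrane genes were those of OMA1, VDAC3 and BNIP3L. OMA1, the protease that remodels the inner membrane under stress, stood at -0.58, and VDAC3, an outer-membrane channel, at -0.53. BNIP3L, a mitophagy receptor induced by hypoxia, stood at 0.34. Besides CASP8AP2, the other caspase and pyroptosis genes were led by GSDME, a pore former that caspases can activate, at 0.37, and by CASP14 at 0.25 from values under the level of 6.66. Among ligands, receptors and signalling genes FAIM, an inhibitor of FAS-induced death, stood at -0.44, the death receptor FAS at -0.33 and TNFRSF1B, under that level in all arrays, at -0.31. In the last list the IAP gene NAIP, which has near-identical copies in the genome and is uncertain, stood at -0.41 and PARP1, a caspase substrate, at 0.28.

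**Figure D5:**
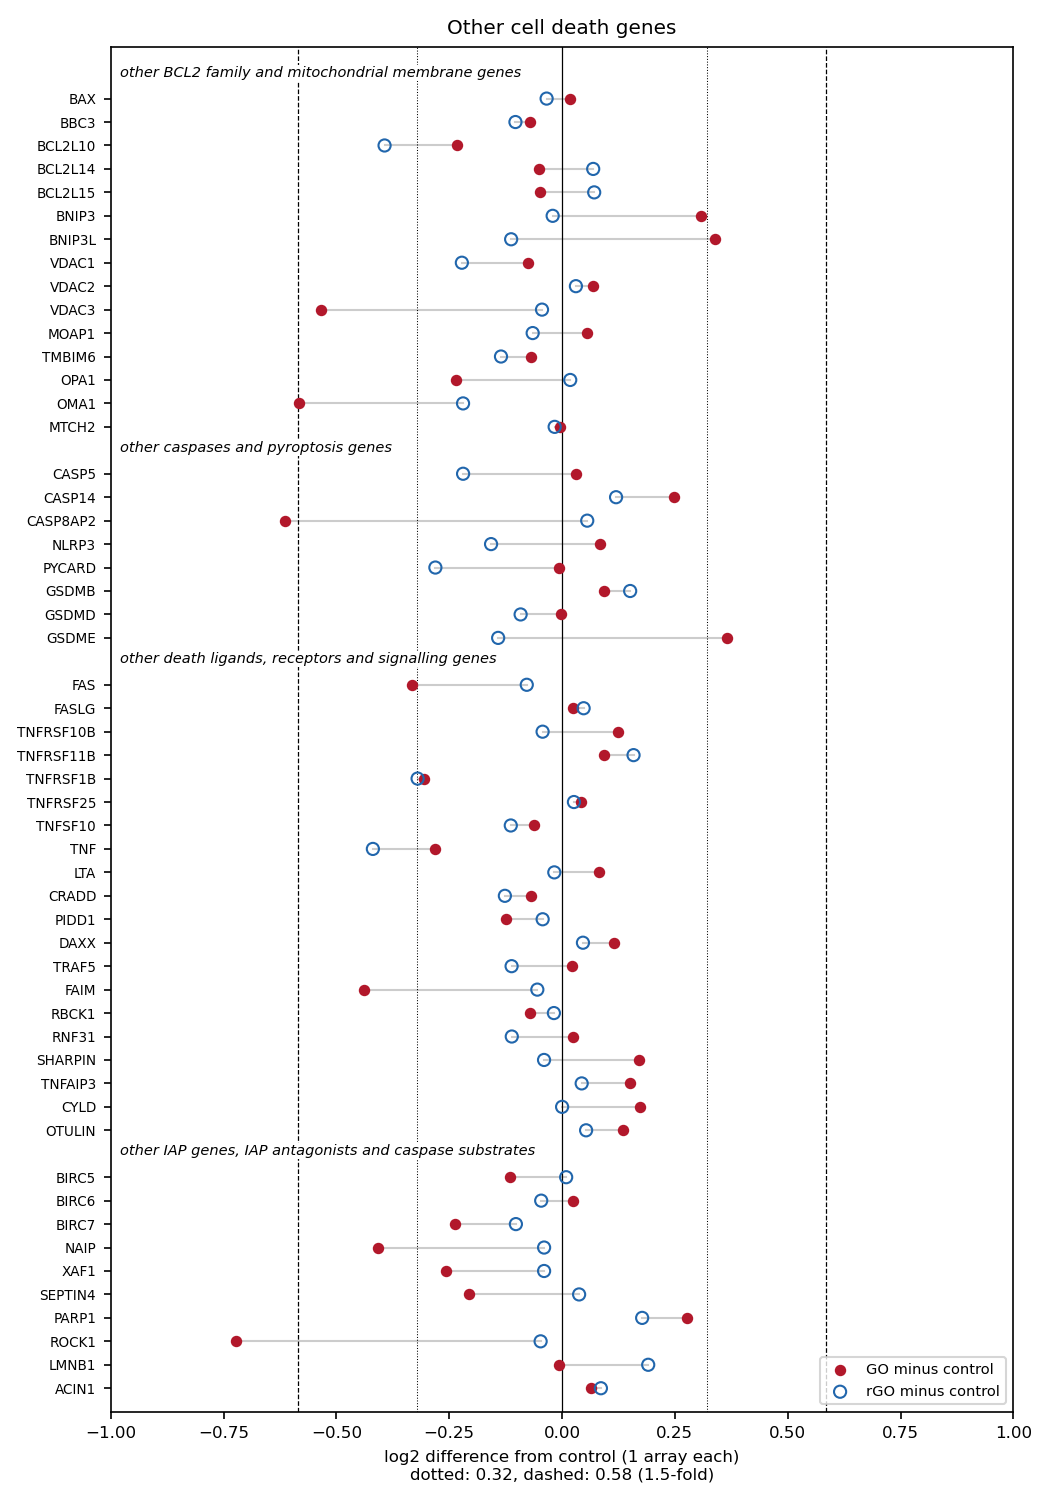
Log2 difference from control for 53 other cell death genes in 4 lists (filled red, GO minus control; open blue, rGO minus control; 1 array per group, no error bars). ROCK1 and CASP8AP2 pass the dashed 1.5-fold line after GO, and no gene passes it after rGO.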

How the data were processed

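Expression was measured on 3 arrays of HepG2 cells. The authors' deposited values are log2 expression values between 2.17 and 14.46; per the submitters' processing notes RMA and MAS5 were used, with no role or version given. Their near-equal quartiles are those of arrays scaled alike; genes were not centred, and further scaling is unknown. The genome build behind the probe sets is not given in the sources used here. Probe sets were named from the platform annotation, which can be old: 19460 carried 1 symbol, 1754 several and 12083 none listed. Gene order, pseudogenes and promoters came from RefSeq (GRCh38.p14). Differences of log2 values were taken between arrays and counted at a size of 0.32, at 1.5-fold (0.58) and at 2-fold over all 18417 genes without a level filter, so that each measured member counts; 35 of the 41 passed the 40th percentile (log2 6.66). All listed members were named. Of other cell death genes, those at least 1.5-fold from control and the 3 largest GO differences per list were named. TNFRSF10B, TNFRSF25, BCL2L10 and BAX fell outside this rule and were named as relatives of listed members. The level filter, the probe set rule, scaling and fold size were varied. Members and lists were chosen with earlier results of these data known. The number of arrays limits the precision. Python 3.11.15, numpy 2.4.6, pandas 2.3.3, statsmodels 0.14.6 and matplotlib 3.10.9 were used.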

Additional observations from a re-analysis of the deposited data

How the results depend on the processing

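TNFRSF21 sits at the size threshold, so its place depends on the scaling: the number of members at least 1.5-fold higher with GO than control was 1 in the deposited values and 0 after a loess on the mean level (TNFRSF21 ranged from 0.58 to 0.63 over the alternatives). With GO against rGO the number at least 1.5-fold higher was 0 in the deposited values and 1 after quantile normalization or median centring. By size alone, 0 members were at least 2-fold higher for GO minus control. At a log2 difference of 0.32 the deposited values gave 5 higher and 4 lower for GO minus control, and 7 higher and 3 lower for GO minus rGO. Scaling moved these counts. For GO minus control, 6 were higher after quantile normalization or median centring, and 3 lower after quantile normalization. For GO minus rGO, 5 were higher and 4 lower after loess, and 2 lower after quantile normalization or median centring. With a level filter at the 60th percentile, which left 23 members, 1 of the 3 lower at that size for GO minus rGO was kept, because the filter removed the others. There were 57 values of single members under the 3 scalings (19 differences, all with a main size of at least 0.32). Of these, 56 moved by less than the robust SD between probe sets of the same gene. BCL2L1 for GO minus rGO moved to 0.47 after quantile normalization. Median centring shifts all genes of a comparison by the same amount, which was less than that robust SD. Its 19 values therefore could not move past the robust SD. Level filters cannot change a gene's own difference, and averaging probe sets changes CFLAR alone among the members. The median over the members ranged from 0.02 to 0.09 for GO minus control, highest with the 60th percentile filter, from -0.02 to -0.0006 for rGO minus control, and from 0.0017 (loess) to 0.06 (40th percentile filter) for GO minus rGO. No paired analysis was possible because each group had 1 array, and no replicate could be left out for the same reason.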
